A study of Rattus norvegicus with 11 samples.

Results

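B cells of the rat kidney were followed across lean rats, obese rats and obese rats treated with enalapril. They were taken as the cells that the authors named exactly B cell in their deposited table, and there were 1276 of them among 114615 cells. No gene values were analysed here, so the markers Cd79a, Cd79b and Ms4a1 could not be checked in these cells, and the name rests on the authors' annotation. Of the 1276 cells, 285 came from 3 obese rats on enalapril, 943 from 4 obese rats and 48 from 4 lean rats.

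The rats were males of the ZSF1 strain, 12 weeks old on arrival, fed a high energy chow, and the labels give all 11 the genotype ZSF1-LeprfaLeprcp/Crl without the allele state of each animal. Obese ZSF1 rats lack a working leptin receptor and are used as a model of diabetic kidney disease, with lean rats of the strain as controls. Obese rats drank either enalapril, which blocks angiotensin-converting enzyme, or the vehicle, and the labels give treatment none to both the obese and the lean rats. Kidneys were perfused, dissociated enzymatically, cleared of debris and dead cells and profiled by droplet 3′ single-cell RNA sequencing, with 10000 cells loaded per reaction.

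B cells are the lymphocytes that carry the B cell receptor, a membrane-bound immunoglobulin, and that present antigen to T cells. After activation some of them mature into plasma cells, which secrete antibody and devote much of their RNA to a small set of immunoglobulin transcripts. In the kidney B cells are normally few, and they are known to gather with T cells and myeloid cells in inflamed tissue.

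The libraries held 4232 to 18427 cells, with a median of 407 to 3092 UMIs (unique molecular identifiers, the count of distinct RNA molecules read) per cell. Lean 2 stood apart, with the lowest median and a cell of 193 UMIs, whereas the shallowest cell of each other library had 469 to 493 UMIs. Of 112971 distinct cell barcodes, 1634 occurred in more than 1 library. This held for the barcodes of 42 B cells, and in 1 case both cells with the barcode were B cells. The sample codes begin with 1 of 6 prefixes, each found in 1 group alone (for example 1 prefix for Obese 3 and Obese 4, another for Lean 3 and Lean 4). The labels do not say what a prefix marks, so it and the group cannot be told apart. The main tests took rats that share a prefix as independent, and whether they are was not tested.

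B cells were rare in every lean kidney and more abundant in both groups of obese rats. B cells made up 1.40%, 1.60%, 0.737% and 3.22% of all cells in Obese 1 to 4. They made up 0.126%, 0.165%, 0.221% and 0.155% in Lean 1 to 4. Every obese kidney lay above every lean kidney, and the lowest obese share had a 95% exact Clopper-Pearson interval of 0.589% to 0.910%, against 0.129% to 0.353% for the highest lean share. These intervals cover counting error only. The lean shares rest on 14, 7, 17 and 10 B cells, and the obese shares on 152, 113, 85 and 593. Obese 4 alone held 62.9% of the B cells of obese rats.

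The mean share was 1.74 ± 1.05% in obese rats and 0.167 ± 0.0398% in lean rats (SD, n = 4 each). In edgeR's quasi-likelihood test on the cells per type and animal, scaled to the total of cells per animal, this was a log2 fold change of 3.39 ± 0.54 (SE; Benjamini-Hochberg adjusted p = 0.000131 over 20 cell types). Of the 20 types, 12 passed the threshold of 0.05 in either direction (60.0%) and 6 were higher (30.0%), so B cells were 1 of many that differed. They stood first in the order of fold changes, ahead of the cells named Mono/Macro (2.12 ± 0.43). In 5 of the 20 types (25%), B cells among them, every obese rat lay above every lean rat. An exact two-sided permutation test of the log2 odds gave p = 0.0286, the lowest value possible with 4 rats in each group (0.0714 when adjusted over the types). Leaving out Lean 2 gave a log2 fold change of 3.39, and leaving out Obese 4 gave 2.90 (edgeR adjusted p = 0.000616).

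**Figure D1:**
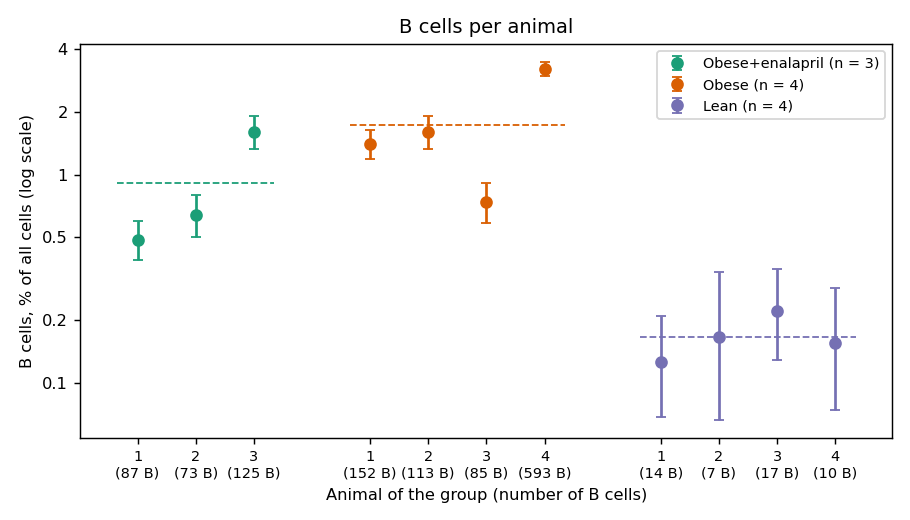
B cells as a percent of all cells (log scale) in each animal, for obese rats on enalapril, obese rats and lean rats. Points are animals with 95% exact binomial intervals, dashed lines are group means and the numbers of B cells stand under the axis. All 7 obese rats, treated or not, sit between 0.485% and 3.22%, above the 4 lean rats at 0.126% to 0.221%.

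In obese rats on enalapril, B cells took an intermediate place. They made up 0.485%, 0.637% and 1.60% of the cells of Obese+enalapril 1 to 3, from 87, 73 and 125 B cells. The treated rats therefore overlapped the obese rats, whose lowest share was 0.737%. The mean was 0.908 ± 0.606% in treated rats (SD, n = 3) and 1.74 ± 1.05% in obese rats (SD, n = 4). The log2 fold change of -0.95 ± 0.52 did not pass the test (edgeR adjusted p = 0.337), and 0 of the 20 types passed in this comparison. The exact permutation test gave p = 0.171. B cells stood at place 17 of 20 in the order of fold changes, between Podo/Stroma (-0.85) and IC-A/B (-1.06), both of which it differed from by less than its SE. The estimate depended on single animals: it was -0.47 without Obese 4 and -1.64 without Obese+enalapril 3, and neither passed (edgeR adjusted p = 0.578 and 0.106).

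Against lean rats, the treated rats still held more B cells. The 3 treated rats lay above the 4 lean rats without overlap, and the log2 fold change was 2.43 ± 0.55 (edgeR adjusted p = 0.00679). Of the 20 types, 3 passed in either direction (15%), and B cells were the 1 type called higher (5.0%). Next in order came DTL, the descending thin limb, at 1.10 ± 0.52 (edgeR adjusted p = 0.108). In 3 of 20 types (15%), every treated rat lay above every lean rat. The difference was 1.75 without Obese+enalapril 3 (edgeR adjusted p = 0.0440), and the exact test gave 0.0571, the lowest value possible with 3 against 4 rats (adjusted p = 0.190).

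**Figure D2:**
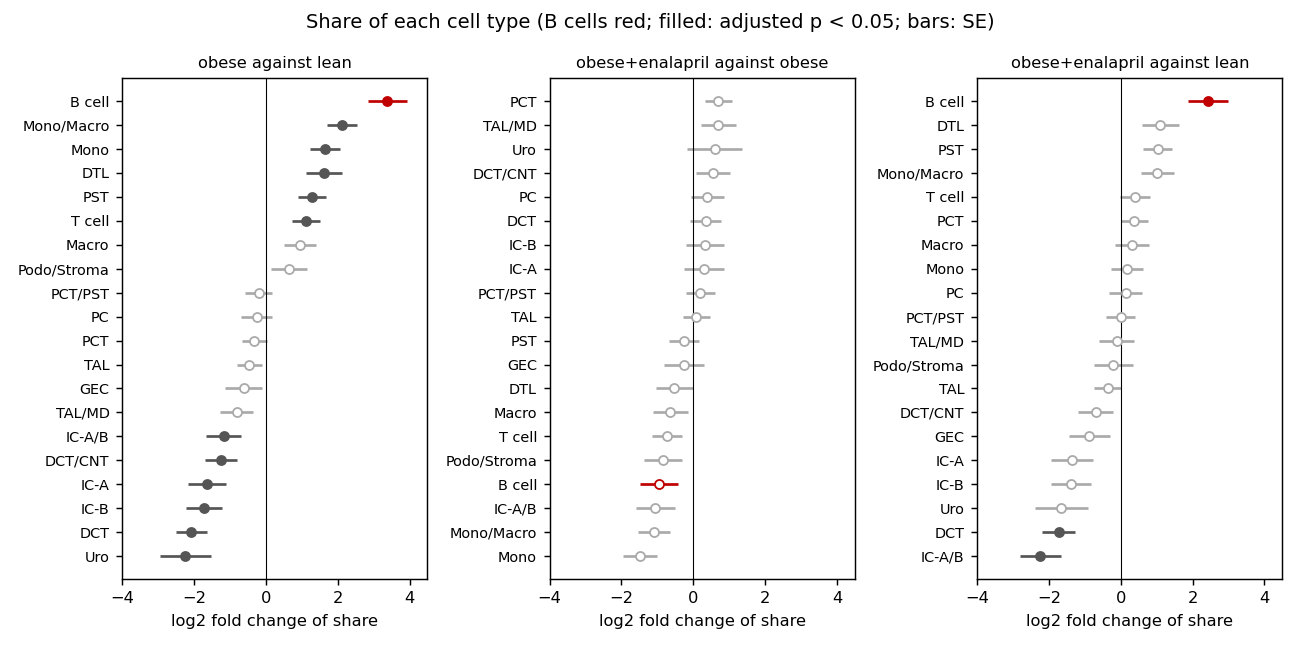
Log2 fold change of the share of all cells (points) with its SE (bars) for the 20 cell types tested, in the comparisons of obese with lean, obese+enalapril with obese and obese+enalapril with lean rats, sorted within each. B cells are red and filled points passed an adjusted p of 0.05; B cells lead the first and the last panel with 3.39 and 2.43 and stand at place 17 in the middle one.

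The other immune types place this in context, since a share of all cells depends on every other type. T cells, the other lymphocytes, made up 15.02 ± 0.899% of cells in obese rats and 6.87 ± 3.30% in lean rats (SD, n = 4 each). Their log2 fold change was 1.13 ± 0.39 (edgeR adjusted p = 0.0195). Monocytes (Mono) also rose, by 1.66 ± 0.42 (edgeR adjusted p = 0.00461). Macrophages (Macro) gave 0.94 ± 0.44 and did not pass (edgeR adjusted p = 0.0705). Between treated and obese rats, T cells gave -0.73 ± 0.42, Mono -1.48 ± 0.46, Mono/Macro -1.10 ± 0.45 and Macro -0.64 ± 0.48, none past the threshold. Between treated and lean rats, T cells gave 0.40 ± 0.42, Mono 0.17 ± 0.44, Mono/Macro 1.02 ± 0.45 and Macro 0.31 ± 0.47, again with none past it.

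Within the lymphocytes, the balance of T and B cells differed as well. There were 15.6, 14.9 and 6.32 T cells for each B cell in Obese+enalapril 1 to 3. There were 10.9, 8.81, 22.0 and 4.52 in Obese 1 to 4. There were 78, 22.4, 43.7 and 28 in Lean 1 to 4, so by these counts every lean kidney had more T cells per B cell than any other kidney, although Obese 3 and Lean 2 were close. The tests of log2 ratios below added a constant to each count. On that scale 3 of the 4 obese rats had more B cells per T cell than every lean rat.

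B cells thus made up 6.02%, 6.30% and 13.7% of B and T cells in Obese+enalapril 1 to 3. They made up 8.43%, 10.2%, 4.35% and 18.1% in Obese 1 to 4, against 1.27%, 4.27%, 2.24% and 3.45% in Lean 1 to 4. The ratio of B to T cells was compared with limma on log2 ratios, in a fit over the ratios of B cells to each of the 19 other types. It was higher in obese than in lean rats by 1.90 ± 0.78 on the log2 scale (limma adjusted p = 0.0209). The exact permutation test of the same log2 ratios gave an unadjusted p of 0.0571, above the lowest possible value of 0.0286. The ratio differed by -0.20 ± 0.84 between treated and obese rats (limma adjusted p = 0.933), an SE that leaves room for differences in either direction. Between treated and lean rats it differed by 1.69 ± 0.84 (limma adjusted p = 0.0553). There the exact permutation test gave an unadjusted p of 0.0571, the lowest possible with these group sizes. The call for obese rats was lost without Lean 1, the animal with the fewest B cells per T cell (1.55, limma adjusted p = 0.0962), and among cells of at least 1000 UMIs (0.76, limma adjusted p = 0.716). At that depth the B to T ratio differed by 0.57 between treated and lean rats (limma adjusted p = 0.907). Lean 2 kept 2 B cells and none of its T cells at that depth, and without it the value for obese rats there was 2.89. The treated rats passed when edgeR was run with T cells as the library size (1.84, adjusted p = 0.0307), and also without Lean 2 (1.96, limma adjusted p = 0.0386; 2.70 at 1000 UMIs, adjusted p = 0.0139).

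**Figure D3:**
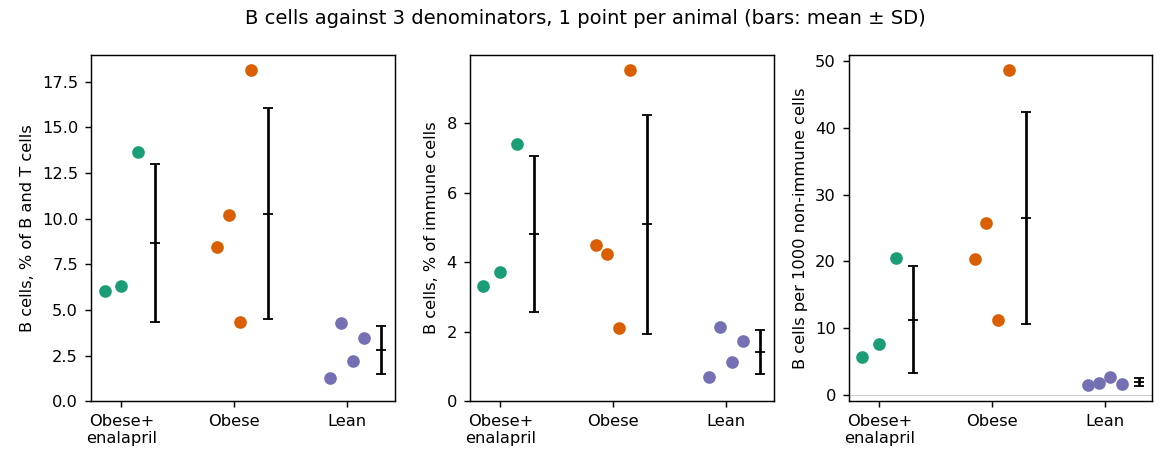
B cells as a percent of B and T cells (left), as a percent of all immune cells (middle) and per 1000 non-immune cells (right), with 1 point per animal and the mean ± SD beside each group. Against the non-immune cells the 4 lean rats lie at 1.52 to 2.74, below all obese and treated rats, whereas against the immune cells Obese 3 (2.12%) meets Lean 2 (2.13%).

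Against all immune cells the groups came closer. B cells were 3.31%, 3.72% and 7.40% of immune cells in Obese+enalapril 1 to 3. They were 4.49%, 4.23%, 2.12% and 9.52% in Obese 1 to 4, against 0.713%, 2.13%, 1.13% and 1.73% in Lean 1 to 4. Obese 3 lay just under Lean 2, so obese and lean rats overlapped, whereas all treated rats lay above the lean rats. The log2 odds differed by 1.75 between obese and lean rats (exact permutation p = 0.0571), by 0.02 between treated and obese rats (p = 1.0, exact permutation) and by 1.77 between treated and lean rats (exact permutation p = 0.0571). Among cells of at least 1000 UMIs the differences from lean rats were much smaller, at 0.31 for obese and 0.37 for treated rats. Lean 2 kept 12 cells at that depth, 2 of them B cells, so its odds there rest on very few cells.

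Against the non-immune cells of the kidney the distance was wider. Per 1000 non-immune cells, Obese+enalapril 1 to 3 held 5.68, 7.69 and 20.4 B cells. Obese 1 to 4 held 20.4, 25.8, 11.3 and 48.6, and Lean 1 to 4 held 1.52, 1.79, 2.74 and 1.70, below every other kidney. The log2 ratio differed by 3.56 between obese and lean rats (exact permutation p = 0.0286), by -1.26 between treated and obese rats (exact permutation p = 0.171) and by 2.29 between treated and lean rats (exact permutation p = 0.0571). Among cells of at least 1000 UMIs the differences were 2.40 for obese and 0.87 for treated against lean rats, again with 12 cells of Lean 2, 2 of them B cells. Of the 9 exact tests over the lymphocyte, immune and non-immune totals, 0 passed after Benjamini-Hochberg adjustment, where the smallest adjusted p was 0.0857. With these group sizes an exact p cannot go below 0.0286 (obese against lean) or 0.0571 (with treated rats). Adjusted over the 9 tests, none of them could therefore pass the threshold, whatever the counts. The adjusted values thus do not decide whether these differences hold.

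Set against each other type in turn, B cells were higher in obese than in lean rats relative to 17 of 19 types (89.5%; limma with Benjamini-Hochberg adjustment). The exceptions were myeloid: Mono (1.40 ± 0.78, adjusted p = 0.0797) and Mono/Macro (1.00 ± 0.78, adjusted p = 0.204), whereas the ratio to Macro passed (2.15 ± 0.78, adjusted p = 0.00899). Between treated and obese rats, 0 of 19 ratios passed (0%), and 1, the ratio to TAL/MD, had an unadjusted limma p of 0.0400. Between treated and lean rats, 15 of 19 passed (78.9%), and the exceptions were the ratios to T cells, Mono/Macro, DTL and PST. All 19 ratios share the same B cell counts and had 1 common SE, so they are not independent. The limma p-values pool the variance over these ratios as if they were independent, and may be too small. In treated rats against lean rats the number fell to 8 without Obese+enalapril 3.

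The counts against lean rats also depended on Lean 2 where cells were restricted by depth. With cells of at least 1000 UMIs alone, 0 of 19 ratios passed in either comparison with lean rats, and with Lean 2 also left out 18 passed for obese and 16 for treated rats. Lean 2 kept 12 cells above that depth, of which 2 were B cells, and its T cells were all below it. The share of all cells passed at that depth with all animals in (3.58 for obese and 2.41 for treated against lean rats, edgeR adjusted p = 0.000422 and 0.0167).

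B cells of 3 of the 4 lean kidneys had lower median UMIs than those of any other kidney, and Lean 3 did not. In Obese+enalapril 1 to 3 the median B cell had 1011, 1917 and 1423 UMIs. It had 1368.5, 1907, 2187 and 2502 UMIs in Obese 1 to 4, against 953, 768, 1620 and 721 UMIs in Lean 1 to 4. Obese 1 lay below Lean 3, and otherwise the obese rats lay above the lean rats. The difference in log2 UMIs was 1.02 ± 0.59 between obese and lean rats and did not pass (limma adjusted p = 0.227; 0 of 20 types passed, 0%). B cells under 1000 UMIs were 49.4%, 8.22% and 20% of the B cells in Obese+enalapril 1 to 3. They were 17.1%, 1.77%, 7.06% and 7.08% in Obese 1 to 4, and 50%, 71.4%, 5.88% and 70% in Lean 1 to 4. T cells under 1000 UMIs were 56.0% in Obese+enalapril 1, the shallowest treated library. They were 10.1%, 9.96% and 9.29% in Lean 1, 3 and 4, and 100% in Lean 2. How many lean B cells lay under the depth at which cells were kept was not tested.

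The median number of genes per B cell followed the UMIs. It was 415, 779 and 536 in treated rats, 575.5, 726, 870 and 921 in Obese 1 to 4, and 442.5, 210, 673 and 410 in Lean 1 to 4. The log2 difference between obese and lean rats was 0.93 ± 0.51 (limma adjusted p = 0.273). The median share of mitochondrial UMIs in B cells was 2.15%, 4.69% and 11.7% in treated rats, the widest spread of the 3 groups. It was 8.68%, 10.99%, 5.27% and 7.50% in Obese 1 to 4, and 5.78%, 0%, 4.98% and 5.53% in Lean 1 to 4. Between obese and lean rats it differed by 4.04 ± 2.58 percentage points (limma adjusted p = 0.310). For UMIs, genes and mitochondrial share, B cells passed in 0 of the 9 comparisons between groups, in which at most 1 of 20 types did (5.0%).

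The authors' cell cycle calls put most B cells in S or G2M phase. The percent was 80.5%, 82.2% and 81.6% in treated rats. It was 84.2%, 88.5%, 96.5% and 85.2% in Obese 1 to 4, and 64.3%, 28.6%, 88.2% and 60.0% in Lean 1 to 4. Lean 3 lay inside the range of the obese rats, and the other lean rats lay below it. The percents of B cells had an SD of 24.5 in lean and 5.57 in obese rats (n = 4 each). The limma SE and p-value that follow draw on the variance of all 20 types, so they do not measure that spread alone. The difference of 28.3 ± 8.11 percentage points between obese and lean rats passed (limma adjusted p = 0.0352), and B cells were the 1 type of 20 that did (5.0%). It was lost in 5 of 11 repeats that left out 1 animal: without Lean 2 (17.7 points, limma adjusted p = 0.0557), Lean 4 (28.2 points, 0.108), Obese 2 (28.3 points, 0.0726), Obese 3 (25.7 points, 0.133) or Obese 4 (29.5 points, 0.0644). It was also lost with cells of at least 500 UMIs (17.8 points, limma adjusted p = 0.124). The exact permutation test gave an unadjusted p of 0.0857, above the lowest possible value of 0.0286. On these percents, 2 of the 4 obese rats lay above every lean rat. The adjusted p of this exact test was 0.309. Adjusted over 18 tests, it could not pass with these group sizes, so the adjusted value does not decide whether the call holds. T cells were called S or G2M at 89.6%, 89.9%, 93.1% and 90.9% in Obese 1 to 4 and at 90.0%, 61.1%, 87.6% and 91.8% in Lean 1 to 4. Such calls were found in most T cells of every animal, so no cycling was read from them. They were fewer in the B cells of Lean 1, 2 and 4, and in the T cells of Lean 2, the shallowest library. The mean S and G2M scores of B cells differed by 0.00617 ± 0.00367 and 0.0251 ± 0.0117 between obese and lean rats, and neither passed (limma adjusted p = 0.284 and 0.171).

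Compared with T cells of the same animal, and so of the same library, B cells had fewer genes and a higher mitochondrial share. The B cells were also shallower in most animals, and neither difference passed among cells of like depth. The median B cell had fewer genes than the median T cell in 10 of 11 animals and the same number in Lean 2, with a mean log2 difference of -0.41 ± 0.30 (SD, n = 11 animals; exact two-sided sign-flip adjusted p = 0.00293 over 6 measures). Its mitochondrial share was higher in 10 of 11 animals, by 1.38 ± 0.85 percentage points (exact sign-flip adjusted p = 0.00293). The animals' B cell medians averaged 6.11% and the T cell medians 4.73%. The UMIs were lower in 9 of 11 animals (-0.37 ± 0.68 on the log2 scale), which did not pass with all animals (exact sign-flip adjusted p = 0.105) and passed without Lean 2 (-0.53, exact adjusted p = 0.00469).

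Fewer B cells than T cells were called S or G2M, by 10.7 percentage points (SD 13.1; lower in 9 of 11 animals; exact sign-flip adjusted p = 0.0129). From at least 20 cells of each type, which leaves out the lean rats, the difference was -3.97 points and did not pass (exact adjusted p = 0.0781). The mean S score was lower in B cells in 11 of 11 animals, by 0.014 on average (exact sign-flip p = 0.000977, the smallest that 11 animals allow). The mean G2M score was lower in 10 of 11 (difference of -0.0320, exact sign-flip adjusted p = 0.00293). None of these differences passed among cells of 1000 to 2000 UMIs, where 8 animals had enough cells of both types. There the log2 difference in genes was -0.08 ± 0.12 (SD, exact adjusted p = 0.492), the mitochondrial share was higher in 4 of 8 animals (0.780 points, exact adjusted p = 0.766), and the S score difference was 0.00195, in the opposite direction. The 8 animals were the 3 treated rats, the 4 obese rats and Lean 3.

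A small set of B cells had very few genes for their depth. The median B cell had 0.395 genes per UMI and the median T cell 0.401, yet 42 B cells (3.29%, exact interval 2.38% to 4.42%) had under 0.1. The threshold was chosen after the values were seen, so these cells are a description with no test. Of the 49 such cells in the whole series, 42 were named B cell (85.7%), and the other 7 were 3 PCT/PST, 2 TAL, 1 IC-A/B and 1 Mono. Of 12698 T cells 0 were under 0.1, and a count of 0 allows a share of up to 0.0236% (taken as 3 cells) or 0.0290% (exact interval). Just outside the threshold, 15 B cells had 0.1 to 0.12 genes per UMI, and just inside it 14 had 0.08 to 0.1.

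These 42 cells had a median of 9206 UMIs but 410 genes, against 2018.5 UMIs and 804 genes in the other 1234 B cells. Their median mitochondrial share was 0.128%, against 7.79% in the other B cells. The lowest ratio belonged to a cell of Obese+enalapril 2 with 18914 UMIs from 192 genes, and a second cell of that animal had 27437 UMIs from 293 genes. The deepest B cell of all, in Obese 1, had 32291 UMIs and 2395 genes. In 7 of 11 libraries the deepest of all cells was a B cell, although by median UMIs B cells were between place 11 and place 20 of 20 or 21 types in every library but Lean 2. That cell was not always 1 of the 42: Lean 4 held none of them, and its deepest cell was a B cell of 16919 UMIs. The most genes in any cell of the series was 2971, so a cell of any type could be very deep only with few genes per UMI. Whether an upper limit on genes was set was not given. Which transcripts the UMIs of the 42 cells came from, and whether they are plasma cells, was not tested.

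**Figure D4:**
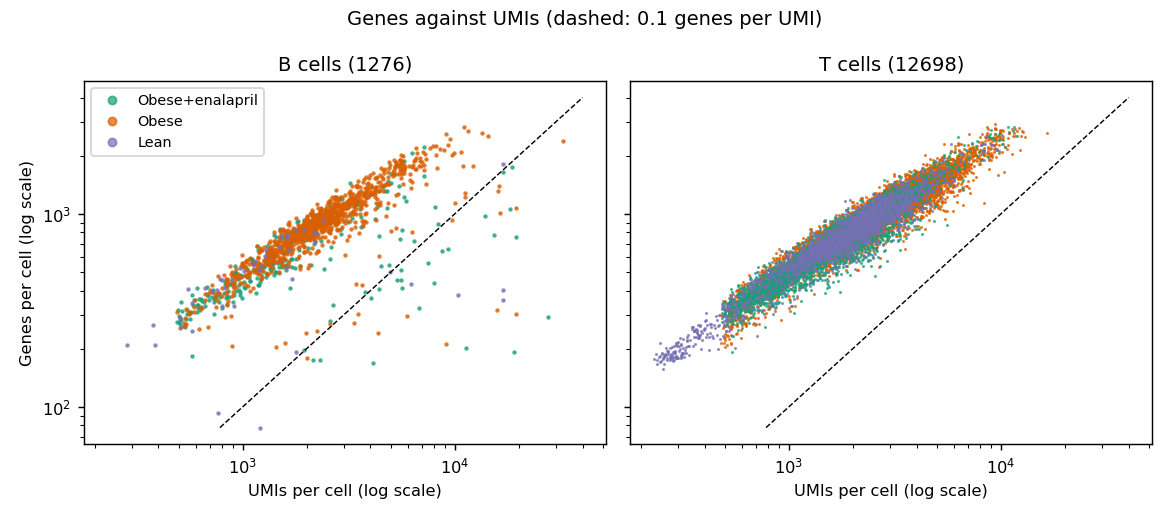
Genes per cell against UMIs per cell (both log scales) for 1276 B cells (left) and 12698 T cells (right), coloured by group, with 1 point per cell. Below the dashed line of 0.1 genes per UMI lie 42 B cells, which reach 32291 UMIs, and 0 T cells.

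The cells with under 0.1 genes per UMI occurred in 9 of 11 animals. They numbered 8, 9 and 6 in Obese+enalapril 1 to 3, which was 9.20%, 12.3% and 4.80% of their B cells. They numbered 4, 1, 0 and 9 in Obese 1 to 4, or 2.63%, 0.885%, 0% and 1.52% of B cells. They numbered 2, 1, 2 and 0 in Lean 1 to 4, or 14.3%, 14.3%, 11.8% and 0% of B cells. The 3 treated rats lay above the 4 obese rats as a share of B cells. The exact intervals of Obese+enalapril 3 (1.78% to 10.2%) and Obese 1 (0.722% to 6.60%) overlapped, however. The lean percents rest on so few cells that the interval for Lean 1 runs from 1.78% to 42.8%. As a share of all cells they were 0.0446%, 0.0786% and 0.0769% in treated rats, 0.0369%, 0.0142%, 0% and 0.0488% in obese rats, and 0.0179%, 0.0236%, 0.0260% and 0% in lean rats. Without these cells B cells still rose in obese against lean rats (3.52, edgeR adjusted p = 0.000108) and in treated against lean rats (2.48, edgeR adjusted p = 0.00704).

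On the authors' map of all cells, whose making is not stated and which may not be independent of the names, most B cells lay among other B cells. At least 50% of the 15 nearest cells were also B cells for 1247 of the 1276 (97.7%), called the B cell region here, and all 15 were for 1148 (90.0%). All 42 cells with under 0.1 genes per UMI lay in this region, with median coordinates of 8.22 and 5.17, against 8.60 and 4.26 for the other B cells. The remaining 29 B cells lay among other cells. Of the 535 neighbours of B cells that were not B cells, 242 were PCT and 144 PST, the proximal tubule types, 76 were Mono/Macro and 39 were T cells.

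The 29 cells off the region had a median mitochondrial share of 17.2% and 2315 UMIs, against 7.38% and 2057 UMIs in the B cells on it. They were 5, 1 and 1 in Obese+enalapril 1 to 3, 3, 1, 2 and 16 in Obese 1 to 4, and 0 in each lean rat. Whether they are doublets or carry free RNA of tubule cells was not tested. Counting the B cells on the region alone left the group differences in place (3.36 for obese against lean rats, edgeR adjusted p = 0.000157; -0.95 for treated against obese rats, adjusted p = 0.340; 2.41 for treated against lean rats, adjusted p = 0.00801).

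**Figure D5:**
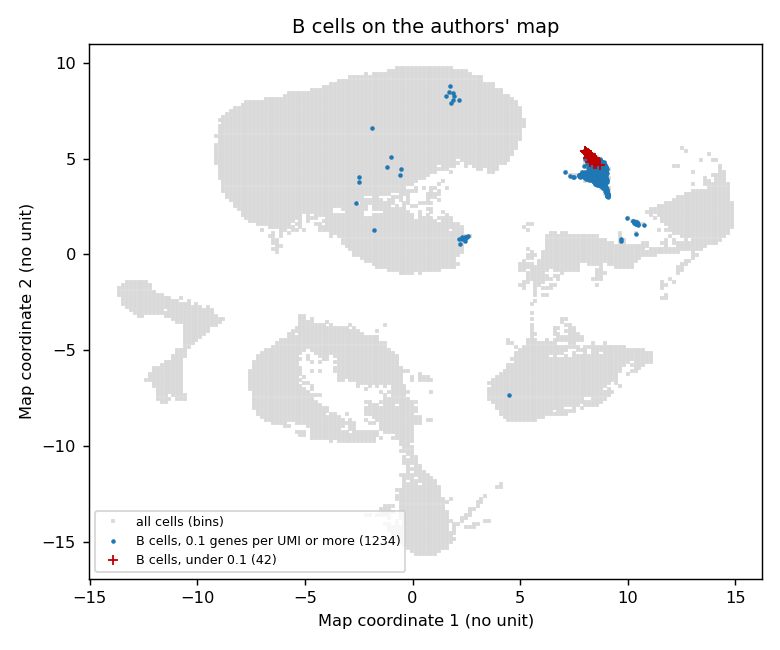
The authors' map of all cells (grey bins; coordinates have no unit) with 1234 B cells of at least 0.1 genes per UMI (blue) and 42 B cells under 0.1 (red). The B cells form 1 region with the red cells at its upper edge, and 29 B cells lie scattered over the regions of other types.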

How the data were processed

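The authors deposited a table of single cells, 1 line each, without gene values. Per the file headers, it holds UMIs and genes per cell as counts, the mitochondrial share of UMIs as a percent, S and G2M scores with a phase, a cell type name and map coordinates. The submitters' processing notes list Seurat 4.3.0, Cell Ranger 7.0.1 and the build rn6. How cells were filtered, doublets and free RNA treated, clusters made and phases called was not given in the sources used here.

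Cells were matched to animals by the sample code in the labels. Types with a mean of at least 10 cells per animal were tested (20 of 21; Endo, with 38 cells, was left out). Cells per type were tested in edgeR 4.0.16 by its robust quasi-likelihood F test (no dispersion trend, no covariate) over all 11 animals, with DESeq2 1.42.0 as an alternative. The SE was derived from the F value. Ratios of B cells to other types (0.5 added to each count), and per-animal medians, percents or mean scores from at least 5 cells, were fitted with limma 3.58.1. P-values were adjusted by Benjamini-Hochberg within every contrast and family, with a threshold of 0.05. Log2 ratios to lymphocytes (B and T cells), immune cells (B, T, Mono, Macro and Mono/Macro) and non-immune cells, and differences of B and T cells, were tested with exact permutations. The edgeR fit of shares and the limma fit of ratios were run on simulated counts, drawn independently for each type. For the ratios, only the calling of changed ones was recorded there, not false calls. The limma fits of per-cell measures were not run on simulated data. Other software was matplotlib 3.10.9, pandas 2.3.3, numpy 2.4.6, Python 3.11.15, scipy 1.17.1 and R 4.3.3. Thinning cells to a fixed depth needs gene values, so a window of UMIs was used.

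Types named are B cells, the other immune types and the neighbours of B cells in each order of fold changes, others where a count of 5 or fewer concerns them. The cells, lists and tests were chosen with earlier results of these data known. Each library was taken as 1 rat, as the series' design text counts them.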

Additional observations from a re-analysis of the deposited data

Results flagged for a closer look

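In Lean 2 the median mitochondrial share of B cells was 0%, whereas it was 4.98% to 5.78% in the other lean rats, a gap of 0.861 of the range of the group. This median rests on 7 B cells, in the library with the shallowest cells. In Lean 1 a mean of 99.5% of the 15 map neighbours of a B cell were B cells, whereas it was 100% in the other lean rats. With the others tied at 100%, any lower value would have been flagged. A total of 24 groups of animals and measures were checked, and chance flags about 1 in 20 where values are not tied.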

How the results depend on the processing

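Of 712 repeats of the results under other settings, 665 were counted as unchanged. For effects this meant the same direction and side of the threshold, for counts of ratios a similar count, and for the map a mean within its SD. The exact tests of larger totals and of per-cell measures between groups could not pass the threshold. Their side of it was thus fixed in advance, which raises the 665. The B cell share of all cells kept direction and side under 15 of 16 settings other than a left-out animal, with log2 fold changes of 3.18 to 3.87 (obese against lean) and 2.22 to 2.71 (treated against lean). A fit with the cells summed by sample code prefix was among these 15. The exception was the exact permutation test (3.18, adjusted p = 0.0714, and 2.23, adjusted p = 0.190), which could not pass for treated against lean rats. Leaving out each animal gave 2.90 to 3.64, -1.64 to -0.47 (treated against obese) and 1.75 to 2.74. The main fits did not pair animals by replicate number. Deviations of same-numbered animals correlated at -0.44 to 0.52 over 10 pairs. Differently numbered animals were not compared, so this does not decide whether the numbers pair them. With the number as a block the log2 fold changes were 3.32, -0.80 and 2.52 (edgeR adjusted p = 0.00238, 0.331 and 0.0324), and B to T ratios were 0.063 for treated against obese and 1.96 for treated against lean rats (limma adjusted p = 0.0282). The number of ratios past the threshold was 14 to 18 and 8 to 16 with each animal left out, and 0 in both comparisons with lean rats from 1000 UMIs. The B to T ratio ranged from 1.52 to 2.28 (obese against lean), -0.62 to 0.17 (treated against obese) and 1.27 to 1.96 (treated against lean) with each animal left out. It was 0.76 (obese against lean) and 0.57 (treated against lean) from 1000 UMIs, and for treated against lean rats 1.69 without variance moderation (limma adjusted p = 0.0439), 1.84 with T cells as the library size and 2.70 from 1000 UMIs without Lean 2, the last 3 past the threshold. From 1000 UMIs, where Lean 2 kept 12 cells, the exact tests against lean rats gave 0.31 and 0.37 (immune cells) and 2.40 and 0.87 (non-immune cells) for obese and treated rats. Exact tests for treated against obese rats ranged from -0.62 to 0.17 (lymphocytes) and -0.36 to 0.41 (immune cells). Without Obese 4 and without Obese+enalapril 1 the lymphocyte value was 0.17 and 0.03. Without Obese 2, Obese 3 and Obese+enalapril 3 the immune value was -0.0037, -0.35 and -0.36. The mitochondrial share ranged from -4.69 to 0.060 points (treated against obese) and -0.657 to 4.10 (treated against lean). The percent S or G2M ranged from 17.7 to 37.6 points (obese against lean) and 10.6 to 30.5 (treated against lean). The first was 17.8 from 500 UMIs and 23.8 without cells under 0.1 genes per UMI, both short of the threshold. It was 28.3 by the exact test (unadjusted p = 0.0857), whose adjusted p could not reach the threshold with these group sizes. The S score ranged from -0.00122 to 0.00283 (treated against obese), and the G2M score from 0.0164 to 0.0408 (obese against lean) and 0.00270 to 0.0271 (treated against lean), past the threshold without Lean 3. B minus T differences from at least 20 cells were -0.32 in log2 UMIs (past the threshold) and -3.97 points in S or G2M (short of it), and log2 UMIs were -0.52 from 500 UMIs and -0.53 to -0.24 with each animal left out. At 1000 to 2000 UMIs they were -0.085 (log2 genes), 0.780 points (mitochondrial), -0.0712 points (S or G2M), 0.00195 (S score) and -0.0103 (G2M score). Causes were not tested. Lean rats have no value for B cells from at least 20 cells. The map settings, the UMI window, the removal of cells with few genes and the other tests of ratios and measures were chosen after seeing the data. Depth and the 48 lean B cells limit every comparison with lean rats.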
